A study of Mus musculus with 9 samples.

Results

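The angiopoietin and Tie receptor axis was described here by 5 genes given by name: the ligands Angpt1 and Angpt2, the receptors Tek (also called Tie2) and Tie1, and the receptor phosphatase Ptprb (also called VE-PTP). All 5 were among the 19348 genes of the count table, and all 5 were among the 15550 genes that passed the filter on low counts. RNA-seq had been made of cells sorted from the lungs of C57BL/6J mice of the genotype Col1_GFP;Foxf1_tdTomato, in which a green reporter marks type I collagen and a red reporter marks the forkhead factor Foxf1. DBL cells were positive for both reporters (replicates 1, 3 and 4). TDonly cells had the Foxf1 reporter only, and ColGFP cells had the collagen reporter only (replicates 1, 2 and 3 of each). All 9 libraries share strain and genotype. Neither the labels nor the design text give the age or number of the mice, or the gates of the sort. A reporter sort selects cells by reporter and not by type, so each population can hold more than 1 cell type.

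Angpt1 is the agonist ligand of the receptor tyrosine kinase Tek, is made mainly by perivascular and mesenchymal cells, and keeps vessels quiescent through PI3-kinase and Akt, which exclude the factor Foxo1 from the nucleus. Angpt2 binds the same receptor as a weak, context-dependent ligand, is released by activated endothelium from Weibel-Palade bodies, and is a transcriptional target of Foxo1. Tie1 is an orphan-like co-receptor of Tek, and Ptprb is an endothelial phosphatase that removes phosphate from Tek and from VE-cadherin.

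Tek and Tie1 lie on chromosome 4 of mm10, Tek at 94739289 to 94874976 on the plus strand and Tie1 at 118471191 to 118490061 on the minus strand. Ptprb lies on chromosome 10 at 116275523 to 116389535 on the plus strand, and Angpt1 on chromosome 15 at 42424723 to 42676977 on the minus strand. Angpt2 lies on chromosome 8 at 18690263 to 18741562 on the minus strand, inside the opposite-strand gene Mcph1 (18595131 to 18803189), with which it shares 0 exonic bases. The antisense gene model Gm17473 covers 737 exonic bases of Angpt1 and has no row of its own in the table, and since no source gives the strand setting of the counting, reads from it cannot be told apart from those of Angpt1. Mcph1 was between 4.70 and 10.2 CPM (read counts scaled to a common library size) in every library, below the lowest Angpt2 level of 20.7 CPM.

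Promoters are shown for Tek and Tie1 only, since no promoter sequence was at hand for the other axis genes. Of the 5 genes, 2 matched the RefSeq promoter table (GRCm38.p6, which has the mm10 coordinates), each with 250 bases before to 50 bases after the start annotated there. For Tek this is the start of the gene as placed above. For Tie1 it lies inside the gene as placed above, so most of the Tie1 window is within that gene. Capitals mark GGAA or its reverse complement TTCC, the core bound by ETS factors, which include the endothelial factors Erg and Ets1.
Tek, chr4:94739039-94739338, plus strand: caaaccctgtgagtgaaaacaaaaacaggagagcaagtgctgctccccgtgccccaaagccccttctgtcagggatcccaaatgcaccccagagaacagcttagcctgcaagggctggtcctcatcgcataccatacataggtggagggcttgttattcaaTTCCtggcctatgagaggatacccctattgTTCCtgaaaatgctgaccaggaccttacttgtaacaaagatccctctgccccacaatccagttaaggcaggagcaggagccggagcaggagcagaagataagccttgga
Tie1, chr4:118489800-118490099, minus strand: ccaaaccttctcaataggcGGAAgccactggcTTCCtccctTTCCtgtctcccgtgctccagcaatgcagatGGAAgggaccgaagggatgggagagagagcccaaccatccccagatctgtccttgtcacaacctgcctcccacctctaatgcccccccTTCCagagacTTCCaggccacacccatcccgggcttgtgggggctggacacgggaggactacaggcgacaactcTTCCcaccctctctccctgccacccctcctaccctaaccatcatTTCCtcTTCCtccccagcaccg
Read on both strands, the Tie1 window held 9 of these cores, a number reached by 1.59% of the 32841 promoter windows of the same length, and the Tek window held 2, reached by 84.7% of them. At least 1 core was found in 96.0% of all windows. The longer ETS sequence CAGGAAG (in 13.3% of windows) and the forkhead sequence GTAAACA (in 3.65%) were found in neither window on either strand. The GATA sequence AGATAA (in 11.2% of windows) was found 1 time, in the Tek window. These matches are letters in a window and say nothing about binding.

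Total counts were 22141810 to 26147475 in DBL, 20765519 to 25715957 in TDonly and 17820969 to 23376574 in ColGFP libraries. Levels are CPM with TMM scaling factors. Foxf1 (Foxf1a in the table) was 87.3 to 113 CPM in DBL, 229 to 279 CPM in TDonly and 54.5 to 62.5 CPM in ColGFP, and Col1a1 was 9539 to 13220 CPM in DBL, 373 to 1566 CPM in TDonly and 4939 to 9593 CPM in ColGFP. The summed level of 12 endothelium markers, among them Pecam1, Cdh5 and Cldn5, was 3828 to 5038 CPM in DBL, 11050 to 12710 CPM in TDonly and 762 to 1076 CPM in ColGFP. All 12 were lower in DBL than in TDonly by the test, as were 12.6% of all tested genes. All 12 were also higher than in ColGFP both in DBL, as were 8.04% of all tested genes, and in TDonly, as were 21.6%. The summed level of 8 fibroblast markers, among them Col1a1, Col3a1 and Dcn, was 36190 to 43530 CPM in DBL, 1572 to 5602 CPM in TDonly and 20940 to 36430 CPM in ColGFP. The 6 smooth muscle markers, of mural cells that can also make Angpt1, summed to 525 to 773 CPM in DBL, 154 to 190 CPM in TDonly and 819 to 2061 CPM in ColGFP. The 10 pericyte markers, the highest of them Pdgfrb, summed to 943 to 1255 CPM in DBL, 182 to 336 CPM in TDonly and 866 to 1198 CPM in ColGFP, and the 7 platelet and megakaryocyte markers, a lineage that also stores Angpt1, to at most 28.7 CPM in DBL, 49.0 CPM in TDonly and 21.2 CPM in ColGFP. Of the pericyte markers 7 were lower and 3 (Cox4i2, Higd1b and Trpc6) were higher in TDonly than in ColGFP by the test. Among all tested genes 24.0% were lower and 21.6% higher there. Epithelium markers (6) summed to 6004 to 6635 CPM in DBL, 9385 to 12490 in TDonly and 3329 to 9773 in ColGFP. Those of leukocytes (7) summed to 1283 to 1457 CPM in DBL, 1960 to 2741 in TDonly and 889 to 2359 in ColGFP. Lymphatic endothelium markers (5) summed to 295 to 386 CPM in DBL, 635 to 646 in TDonly and 116 to 160 in ColGFP. Mesothelium markers (5) summed to 493.5 to 586 CPM in DBL, 57.5 to 228 in TDonly and 90.25 to 149 in ColGFP. In the core's numbering, replicate 1 of each population belongs to a lower run of numbers than the other 6 libraries. Within each population replicate 1 differed from the other replicates far beyond counting error (chi-square per degree of freedom 53.8 to 98.8, against 5.32 to 14.6 between the others). The labels do not name this split as a batch. They also do not state whether replicates are separate animals, so the p-values rest on the spread between these samples, which may be technical.

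The receptors and the phosphatase were highest in TDonly, intermediate in DBL and lowest in ColGFP. Of the 5 axis genes, 4 passed the test between DBL and TDonly (1 higher and 3 lower, where 29.9% of all tested genes passed, 17.3% higher and 12.6% lower), 4 between DBL and ColGFP (3 higher and 1 lower, where 14.5% passed, 8.04% higher and 6.47% lower) and 4 between TDonly and ColGFP (3 higher and 1 lower, where 45.5% passed, 21.6% higher and 24.0% lower). Tek, Tie1 and Ptprb always moved together, Angpt1 moved against them, and Angpt2 passed in no comparison. The libraries of the compared populations did not overlap for the same 4 genes in each comparison, as was so for 47.0% of all tested genes between DBL and TDonly, 33.3% between DBL and ColGFP and 56.1% between TDonly and ColGFP. The count of lower genes in DBL over ColGFP was 0 without DBL replicate 1, 3 or 4, TDonly replicate 3 or any of the ColGFP replicates, and that in TDonly over ColGFP was 2 without TDonly replicate 1. The median log2 fold change of the 5 genes was -1.27, 2.01 and 3.28 in these comparisons, against -0.04, -0.003 and 0.02 over all tested genes. In sorted pools, fewer cells of a type and less RNA per cell cannot be told apart.

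**Figure D1:**
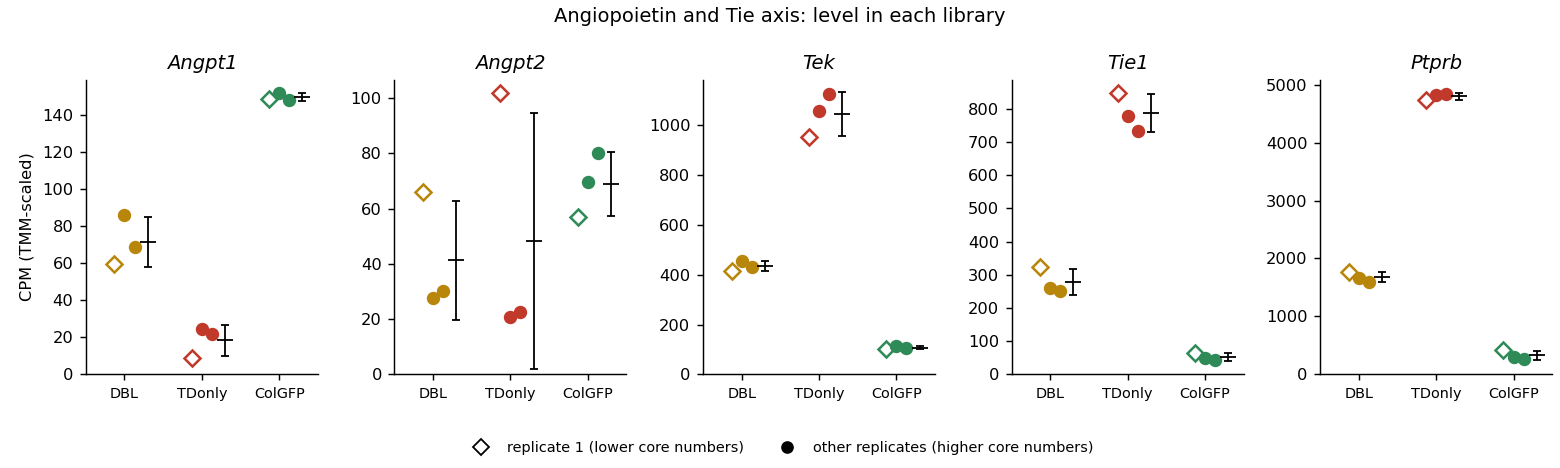
CPM (linear axes from 0) of each axis gene in each library, grouped by population; open diamonds are replicate 1, filled circles the other replicates, and black bars the mean ± SD (n = 3). Tek, Tie1 and Ptprb are highest in TDonly and lowest in ColGFP without overlap, Angpt1 has the opposite order, and in Angpt2 the replicate 1 libraries of DBL and TDonly stand above the others of their population.

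Tek, the angiopoietin receptor, measured 417, 454 and 433 CPM in DBL replicates 1, 3 and 4, then 952, 1055 and 1126 CPM in TDonly replicates 1 to 3, and 104, 115 and 105 CPM in ColGFP replicates 1 to 3. No library of a population reached the range of another. DBL was lower than TDonly by a log2 fold change of -1.27 ± 0.10 (SE; edgeR adjusted p = 6.99e-05) and higher than ColGFP by 2.01 ± 0.11 (adjusted p = 1.03e-05). Between TDonly and ColGFP the log2 fold change was 3.28 ± 0.11 (adjusted p = 1.67e-07), or 9.70-fold.

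Tie1, the co-receptor, measured 323, 260.4 and 251 CPM in DBL replicates 1, 3 and 4, then 848, 779 and 733 CPM in TDonly, and 65.7, 49.97 and 43.2 CPM in ColGFP. The populations again did not overlap. Replicate 1 was the highest library of each population. The log2 fold change was -1.50 ± 0.17 in DBL over TDonly (edgeR adjusted p = 0.000212), 2.39 ± 0.17 in DBL over ColGFP (adjusted p = 3.07e-05) and 3.89 ± 0.18 in TDonly over ColGFP (adjusted p = 4.78e-07).

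Ptprb, the phosphatase that acts on Tek, had the highest counts of the axis. It measured 1775, 1658 and 1601 CPM in DBL replicates 1, 3 and 4, then 4726, 4829 and 4834 CPM in TDonly, and 421, 303 and 269 CPM in ColGFP. The TDonly libraries lay close together, ColGFP replicate 1 stood above the other ColGFP libraries, and the populations did not overlap. Its log2 fold changes were close to those of Tie1, at -1.52 ± 0.17 in DBL over TDonly (edgeR adjusted p = 0.000228), 2.34 ± 0.18 in DBL over ColGFP (adjusted p = 3.69e-05) and 3.86 ± 0.19 in TDonly over ColGFP (adjusted p = 5.40e-07).

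These calls held for Tek, Tie1 and Ptprb within the 6 libraries of the higher core numbers. There the log2 fold change of Tek was -1.26 in DBL over TDonly, 2.03 in DBL over ColGFP and 3.29 in TDonly over ColGFP. That of Tie1 was -1.52, 2.47 and 3.99 in these comparisons, and that of Ptprb -1.53, 2.52 and 4.05. Among all genes, 43.1% passed in that smaller fit between DBL and TDonly, 28.9% between DBL and ColGFP and 56.6% between TDonly and ColGFP. The summed level of the endothelium markers moved in the same order as these 3 genes, as given above. The ratio of each gene to that sum is given below, and the part of the markers in the differences was not tested.

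**Figure D2:**
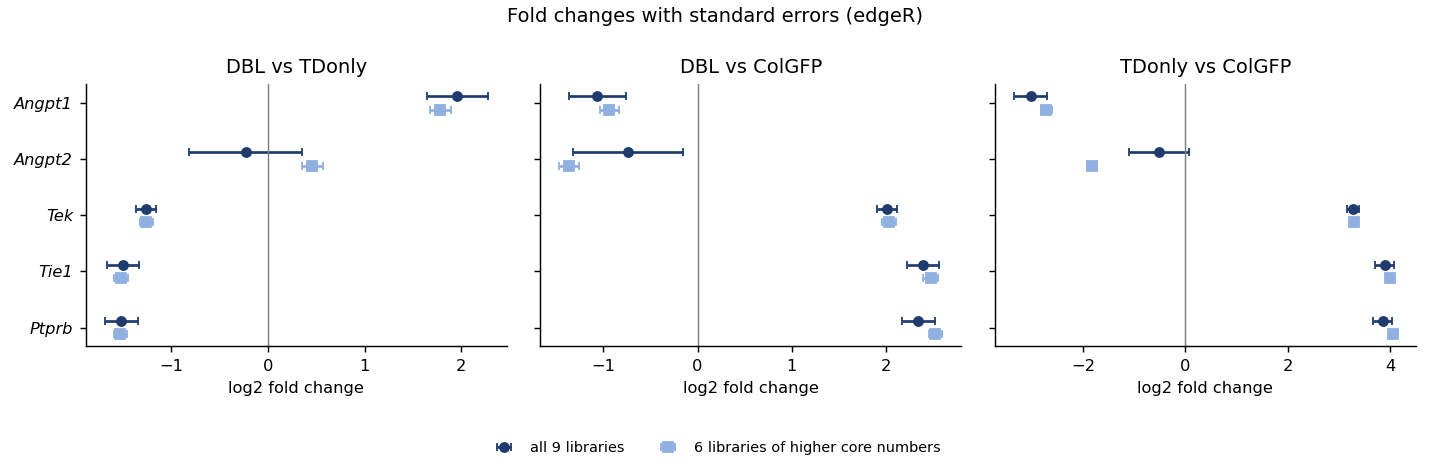
Log2 fold change ± SE of each axis gene in the 3 comparisons, from the fit of all 9 libraries (dark circles) and of the 6 libraries of higher core numbers (light squares). Tek, Tie1 and Ptprb differ little between the fits, while Angpt2 in TDonly over ColGFP is at -0.51 in all libraries and at -1.82 in the 6.

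Angpt1, the agonist ligand, had the opposite order. It measured 59.5, 86.1 and 68.9 CPM in DBL replicates 1, 3 and 4, then 8.89, 24.7 and 21.7 CPM in TDonly, and 148, 152 and 148 CPM in ColGFP. The ColGFP libraries were nearly level, TDonly replicate 1 was the lowest library of all, and the populations did not overlap. DBL was higher than TDonly by a log2 fold change of 1.96 ± 0.31 (edgeR adjusted p = 0.00128), and TDonly was lower than ColGFP by -3.02 ± 0.33 (adjusted p = 5.39e-05). DBL was lower than ColGFP by -1.06 ± 0.30 (adjusted p = 0.0442), a call near the threshold. It missed the threshold without DBL replicate 1, 3 or 4, without ColGFP replicate 1, 2 or 3, and without TDonly replicate 3 (adjusted p = 0.0600 to 0.138, log2 fold change -1.22 to -0.95), with library totals in place of TMM factors (adjusted p = 0.0747) and with DESeq2 size factors (adjusted p = 0.0504). Within the 6 libraries of higher core numbers it was -0.93 (edgeR adjusted p = 1.05e-06), where 28.9% of all genes passed. The replicate 1 libraries alone gave -1.32. The smooth muscle sum had the order of Angpt1, while the fibroblast sum was highest in DBL and the pericyte sums of DBL and ColGFP overlapped; their part in the Angpt1 differences was not tested.

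Angpt2, the context-dependent ligand, showed no difference between populations that passed over the 9 libraries. It measured 66.1, 27.7 and 30.0 CPM in DBL replicates 1, 3 and 4, then 102, 20.7 and 22.6 CPM in TDonly, and 57.1, 69.6 and 80.2 CPM in ColGFP. Replicate 1 was the highest library in DBL and TDonly and the lowest in ColGFP, and the populations overlapped. The log2 fold change was -0.23 ± 0.58 in DBL over TDonly (edgeR adjusted p = 0.80), -0.74 ± 0.59 in DBL over ColGFP (adjusted p = 0.480) and -0.51 ± 0.58 in TDonly over ColGFP (adjusted p = 0.502).

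Within the 6 libraries of higher core numbers Angpt2 passed in all 3 comparisons. This fit leaves out replicate 1, the library that stands apart, and so has fewer than 3 libraries per population. Among all genes, 43.1% passed in it between DBL and TDonly, 28.9% between DBL and ColGFP and 56.6% between TDonly and ColGFP. There Angpt2 was higher in DBL than in TDonly by 0.46 ± 0.11 (log2, edgeR adjusted p = 0.00207), lower in DBL than in ColGFP by -1.36 ± 0.11 (adjusted p = 1.20e-08) and lower in TDonly than in ColGFP by -1.82 ± 0.11 (adjusted p = 7.75e-11). Between the replicate 1 libraries, 1 per population, the differences ran the other way, at -0.62 in DBL over TDonly, 0.21 in DBL over ColGFP and 0.83 in TDonly over ColGFP. An interaction test of the runs, chosen after replicate 1 was seen to stand apart and with 1 lower-number library per population, passed for Angpt2 in all 3 comparisons, and for 4.85% of all genes in DBL over TDonly, 13.1% in DBL over ColGFP and 16.8% in TDonly over ColGFP. It takes its spread from the other 6 libraries alone, so it describes these libraries and is no independent evidence of a difference between runs. Without TDonly replicate 1 the log2 fold change in TDonly over ColGFP was -1.67 (adjusted p = 0.00488).

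Levels of different genes are compared here per kilobase of exon, from the union of GENCODE M21 exons (Ptprb 13333 bases, Tek 4712, Tie1 4917, Angpt1 5205, Angpt2 3690). On this scale Ptprb was 126 ± 6.64 CPM per kb in DBL, 359.7 ± 4.55 in TDonly and 24.8 ± 5.97 in ColGFP, and Tek was 92.2 ± 3.97 in DBL, 222 ± 18.6 in TDonly and 22.9 ± 1.30 in ColGFP (SD, n = 3). The order in DBL and TDonly was Ptprb, Tek, Tie1 and then the ligands, with Tie1 at 56.6 ± 7.96 CPM per kb in DBL and 159.9 ± 11.8 in TDonly. Angpt1 averaged 13.7 ± 2.59 CPM per kb in DBL and 3.54 ± 1.61 in TDonly, and Angpt2 averaged 11.2 ± 5.84 in DBL and 13.1 ± 12.53 in TDonly. Within libraries, Angpt1 per kb was 0.638, 2.20 and 1.62 times Angpt2 in DBL replicates 1, 3 and 4, and 0.0621, 0.845 and 0.68 times in TDonly replicates 1 to 3. Angpt2 was thus above Angpt1 in each TDonly library, and the order varied in DBL. In ColGFP the 5 genes lay closer together. There Angpt1 was at 28.7 ± 0.417 CPM per kb and Ptprb within its spread of that level, at 1.11 times Angpt1 in replicate 1 and 0.781 and 0.713 times in replicates 2 and 3. Tek and Angpt2 (18.7 ± 3.14) had means below Angpt1, and Tie1 had the lowest mean, 10.8 ± 2.34.

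Ratios of read counts within a library do not depend on the scaling between libraries, and 9 of them were compared over the 3 populations by exact two-sided permutation tests over all 1680 assignments of the libraries, whose smallest possible p is 0.00357, with adjustment over the 9 ratios. Angpt2 reads per Tek read were 0.159, 0.0610 and 0.0695 in DBL replicates 1, 3 and 4, then 0.107, 0.0197 and 0.0201 in TDonly, and 0.550, 0.607 and 0.767 in ColGFP. All 3 ColGFP libraries were above the 6 others. The geometric mean was 0.0876 in DBL, 0.0348 in TDonly and 0.635 in ColGFP (exact permutation p = 0.0107, adjusted p = 0.0482). The ratio of Angpt2 to the endothelium markers differed likewise (adjusted p = 0.0482 by the same exact permutation test), with 0.00723 to 0.0131 in DBL, 0.00188 to 0.00801 in TDonly and 0.0530 to 0.105 in ColGFP. Both calls depended on single libraries: they were at adjusted p = 0.0536 to 0.0804 without DBL replicate 1 or 4, TDonly replicate 2 or 3, or ColGFP replicate 2 or 3. As given above, Tek and the endothelium markers differed between all populations, while Angpt2 itself passed in no comparison over the 9 libraries. Both ratios therefore carry the differences of their denominators and are no separate evidence of a difference in Angpt2.

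The receptor ratios differed by less. Tie1 reads per Tek read were 0.775, 0.574 and 0.580 in DBL, then 0.891, 0.738 and 0.651 in TDonly, and 0.633, 0.436 and 0.414 in ColGFP, with replicate 1 the highest in each (exact permutation adjusted p = 0.138). Ptprb reads per Tek read were 4.26, 3.65 and 3.70 in DBL, then 4.97, 4.58 and 4.29 in TDonly, and 4.06, 2.64 and 2.58 in ColGFP (adjusted p = 0.135, exact permutation). TDonly had the highest and ColGFP the lowest of both ratios in both runs of core numbers. When libraries were exchanged only within their run, the adjusted p of both ratios was 0.02 by the exact permutation test. Their unadjusted p was then 0.0111, the smallest possible. Without ColGFP replicate 1 the unrestricted tests passed as well (exact permutation adjusted p = 0.0375 for Tie1 to Tek and 0.0321 for Ptprb to Tek). They did not pass without any other single library (exact permutation adjusted p = 0.129 to 0.285 and 0.141 to 0.206). Set against the endothelium markers, Tie1 and Ptprb varied less. The ratio of Tie1 to their sum was 0.0636 to 0.0680 in DBL, 0.0638 to 0.0704 in TDonly and 0.0568 to 0.0610 in ColGFP (exact permutation adjusted p = 0.0643). Its adjusted p was 0.0375 without ColGFP replicate 1 and 0.0536 to 0.129 without any other single library. The ratio of Ptprb to their sum was 0.352 to 0.433 in DBL, 0.372 to 0.437 in TDonly and 0.350 to 0.391 in ColGFP (exact permutation adjusted p = 0.286). That of Tek was 0.0827 to 0.119 in DBL, 0.0749 to 0.0981 in TDonly and 0.0964 to 0.137 in ColGFP. Its test did not pass (exact permutation adjusted p = 0.213), nor did it when any single library was left out (adjusted p = 0.142 to 0.442).

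**Figure D3:**
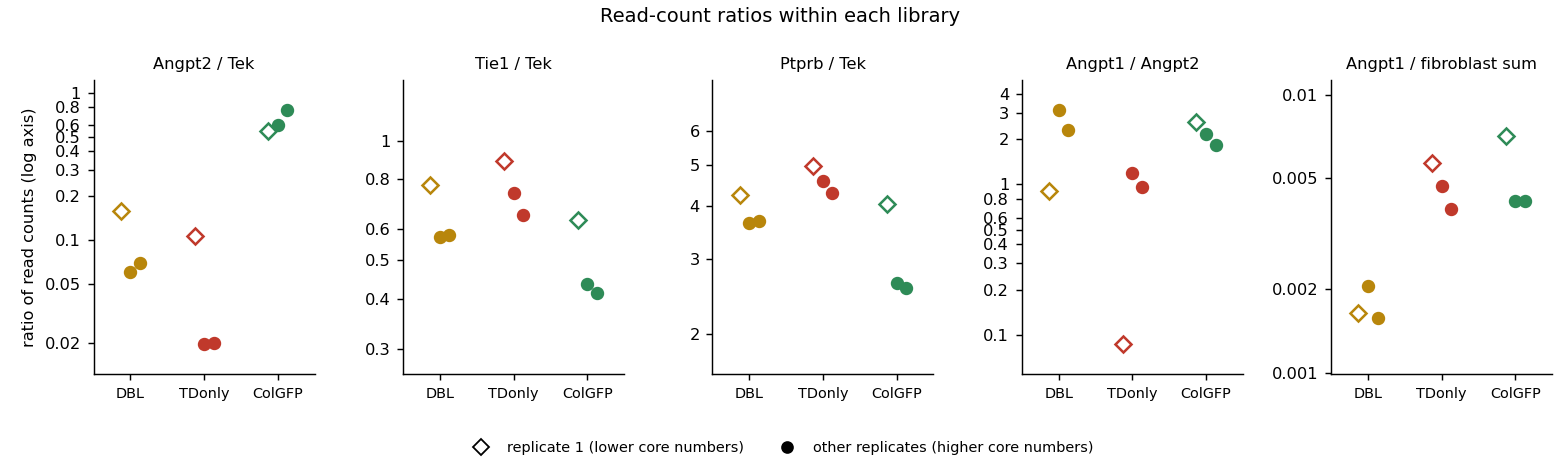
Ratios of read counts within each library (log axes) by population; open diamonds are replicate 1 and filled circles the other replicates. Angpt2 per Tek is 0.550 to 0.767 in ColGFP and at most 0.159 elsewhere, and Angpt1 per fibroblast read is lowest in DBL.

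The balance of the ligands varied widely among the replicates of DBL and TDonly. Angpt1 reads per Angpt2 read were 0.900, 3.11 and 2.29 in DBL replicates 1, 3 and 4, then 0.0875, 1.19 and 0.959 in TDonly, and 2.60, 2.18 and 1.84 in ColGFP. The test did not pass (exact permutation adjusted p = 0.138). Angpt1 was also set against the summed fibroblast markers, since mesenchymal cells are its main source. This ratio was 0.00165, 0.00205 and 0.00158 in DBL, against 0.00566, 0.00468 and 0.00387 in TDonly and 0.00708, 0.00416 and 0.00414 in ColGFP. All 3 DBL libraries were below the 6 others (exact permutation p = 0.0286, adjusted p = 0.0643). The sum includes Col1a1 and Col1a2, of the collagen that the green reporter marks, and its highest gene was Col3a1. These collagens had DBL means above those of ColGFP, while Pdgfra and Tcf21 had DBL means below those of ColGFP, as Angpt1 did. The part of the collagens in this ratio was not tested. Without ColGFP replicate 1 the adjusted p of this ratio was 0.0375, and without any other single library it was 0.0643 to 0.0857.

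The place of DBL between the populations was expressed as a percentage, with the ColGFP mean at 0 and the TDonly mean at 100, on linear CPM and as a description only. Ptprb was at 30.2 ± 1.98%, Tie1 at 30.7 ± 5.34% and Tek at 34.9 ± 2.0% (SD of the DBL libraries, n = 3). The 12 endothelium markers lay between 29.7% (Cdh5) and 34.1% (Erg), with a median of 31.4%, so Ptprb and Tie1 were inside and Tek just above their range. Angpt1 was at 59.4 ± 10.3%. The fibroblast markers did not share a place: the receptor Pdgfra was at 50.8% and the factor Tcf21 at 50.2%, while Col1a1, Col1a2, Col3a1, Lum and Dcn were below 0, which means a DBL mean above that of ColGFP, and Fn1 was at 2.73 ± 49.2%. On log2 CPM the places of Tek, Tie1 and Ptprb were 61.45%, 61.5% and 60.9% and that of Angpt1 was 34.3%, so the percentage depends on the scale.

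**Figure D4:**
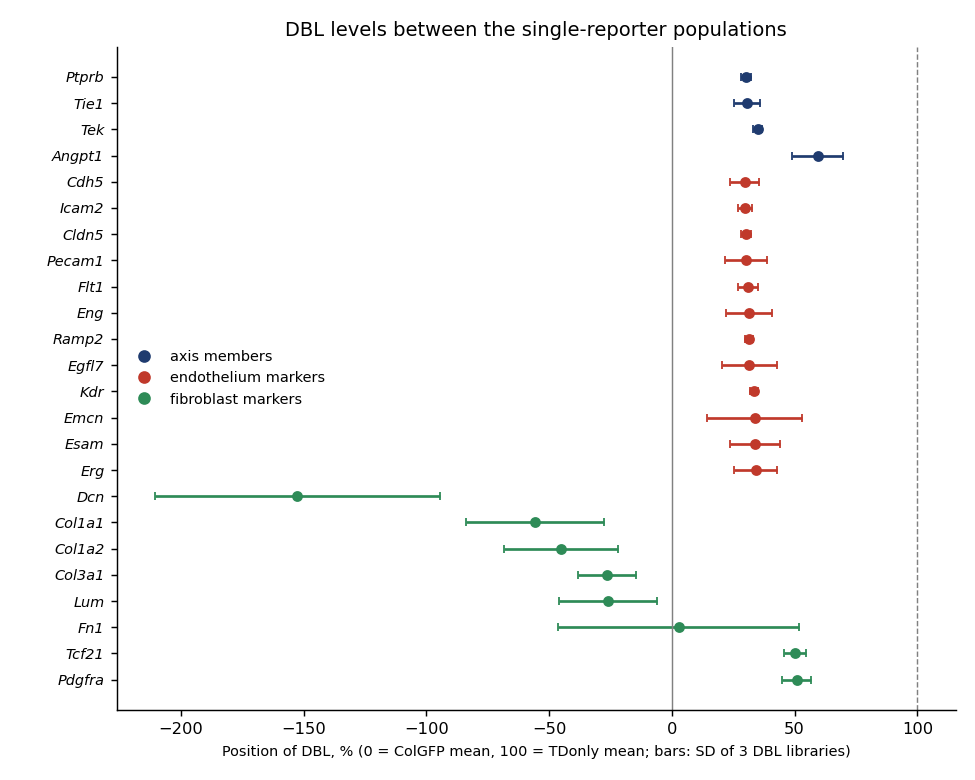
Level of DBL as a percentage of the way from the ColGFP mean (solid line at 0) to the TDonly mean (dashed line at 100) on linear CPM, with bars for the SD of the 3 DBL libraries. Ptprb (30.2%) and Tie1 (30.7%) sit inside the range of the endothelium markers (29.7 to 34.1%), Tek (34.9%) sits just above it, and Angpt1 sits at 59.4%. The 8 fibroblast markers spread between -152.5% (Dcn) and 50.8% (Pdgfra).

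The genes whose log2 CPM followed each axis gene most closely over the 9 libraries were taken from 9326 genes with a mean of at least 10 CPM, as a description; the points share libraries and depth. For Tie1 they were Cdh5 (Pearson r = 0.9995), the lectin Clec1a, the endothelial receptor Cd93, the ligand Bmp6 and Cyyr1. For Ptprb they were Tspan13 (r = 0.9997), Sema3g, the adhesion receptor Gpr116, Casz1 and Myrip, and for Tek they were Tspan18 (r = 0.9991), the water channel Aqp1, the aryl hydrocarbon receptor Ahr, Pcdh12 and Sema6a. For Angpt1 they were the phosphatase Ptprd (r = 0.998), the collagen chain Col6a3, Snap47, the receptor Gfra2 and Twsg1; Ptprd averaged 227 CPM in DBL, 62.6 CPM in TDonly and 507 CPM in ColGFP. For Angpt2 they were Dexi (r = 0.952), the splicing factor Snrnp70, 6720401G13Rik, Las1l and Pdcd11, whose population means lay close together, as at 49.3 CPM in DBL, 48.7 CPM in TDonly and 52.6 CPM in ColGFP for Snrnp70.

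Most relatives of the angiopoietins were low in TDonly. Of 8 genes, 7 of them angiopoietins or angiopoietin-like and 1 Svep1, a matrix protein known to bind Tie1, 6 were higher in DBL than in TDonly, as were 17.3% of all genes (median log2 fold change 2.46). In TDonly 6 were lower than in ColGFP, as were 24.0% of all genes (median -2.64). Between DBL and ColGFP 0 passed by edgeR, 0 by DESeq2 and 0 by limma-voom, with 2 at an unadjusted edgeR p below 0.05. There 3 were lower within the 6 libraries of higher core numbers (Angptl2, Angptl4 and Svep1), where 28.9% of all genes passed in either direction, and 1 without TDonly replicate 1. Svep1 averaged 639 ± 114 CPM in DBL, 85.5 ± 42.4 CPM in TDonly and 963 ± 231 CPM in ColGFP (SD, n = 3), with a log2 fold change of 2.90 ± 0.40 in DBL over TDonly (edgeR adjusted p = 0.000551). Angptl2 averaged 210.3 ± 59.8 CPM in DBL, 37.0 ± 15.5 CPM in TDonly and 365 ± 31.3 CPM in ColGFP, with 2.51 ± 0.33 in DBL over TDonly. Angpt4, another angiopoietin, was low, at 7.57 ± 1.38 CPM in DBL, 0.937 ± 0.643 CPM in TDonly and 4.32 ± 2.75 CPM in ColGFP. It was higher in DBL than in TDonly (3.02 ± 0.67, edgeR adjusted p = 0.00734). The fibroblast marker sum moved in the same order between TDonly and the other populations, and its part in these differences was not tested.

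Among the R3 receptor phosphatases, the subtype of Ptprb, 3 of 4 were tested and Ptprh was too low. Ptprj, also an endothelial phosphatase, averaged 90.4 ± 6.29 CPM in DBL, 152 ± 6.53 CPM in TDonly and 58.4 ± 13.9 CPM in ColGFP. It changed in the direction of Ptprb and by less, at -0.75 ± 0.15 in DBL over TDonly (edgeR adjusted p = 0.00427) and 1.38 ± 0.15 in TDonly over ColGFP (adjusted p = 6.11e-05). Its call in DBL over ColGFP (0.63 ± 0.15, adjusted p = 0.0203) was lost without DBL replicate 1 or ColGFP replicate 2 or 3 (adjusted p = 0.0681 to 0.0873). Ptprq was higher in DBL than in both others, at 5.83 ± 2.21 CPM in DBL, 1.63 ± 0.496 CPM in TDonly and 1.64 ± 0.627 CPM in ColGFP.

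Of the 15 adaptors and effectors of Tek, 1 was higher (Shc1) and 4 were lower (Grb14, Grb2, Nck1 and Nos3) in DBL than in TDonly, where 29.9% of all genes passed, with a median log2 fold change of -0.21. In DBL over ColGFP 1 was higher (Nos3) and 1 lower (Pik3r1), where 14.5% of all genes passed, and within the 6 libraries of higher core numbers 6 were higher and 1 lower, where 28.9% passed. Leaving out DBL replicate 4, TDonly replicate 1 or ColGFP replicate 1 gave 2 higher. In TDonly over ColGFP 7 were higher and 2 lower, where 45.5% of all genes passed. The endothelial nitric oxide synthase Nos3 moved with the receptors, at 32.1 ± 7.84 CPM in DBL, 96.5 ± 17.3 CPM in TDonly and 5.36 ± 2.10 CPM in ColGFP, or -1.59 ± 0.27 in DBL over TDonly (edgeR adjusted p = 0.00190) and 2.58 ± 0.30 in DBL over ColGFP (adjusted p = 0.000411). The adaptor Grb14, a partner of Tek, averaged 19.9 ± 1.24 CPM in DBL, 36.3 ± 4.44 CPM in TDonly and 13.9 ± 4.0 CPM in ColGFP. Pik3r1, the regulatory subunit of PI3-kinase, was lower in DBL and TDonly than in ColGFP by -0.55 ± 0.09 and -0.53 ± 0.09 (adjusted p = 0.00428 and 0.00132). The kinase Akt1 averaged 169 ± 7.26 CPM in DBL, 188 ± 7.66 CPM in TDonly and 147 ± 1.94 CPM in ColGFP, and Foxo1 averaged 119 ± 0.379 CPM in DBL, 137 ± 17.1 CPM in TDonly and 114 ± 25.1 CPM in ColGFP.

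The 7 surface partners did not all move together: in DBL 1 was higher and 3 lower than in TDonly, where 29.9% of all genes passed, and 5 were higher and 1 lower than in ColGFP, where 14.5% passed. The Ptprb substrates Cdh5 (VE-cadherin) and Kdr, and Fgd5, which works with Tek and Ptprb at the membrane, were lower in DBL than in TDonly and higher in DBL than in ColGFP, at 2.40 ± 0.19, 2.19 ± 0.13 and 2.08 ± 0.16 over ColGFP (edgeR adjusted p = 1.30e-05 to 4.35e-05). Cdh5 and Kdr are also among the 12 endothelium markers given above. Of the integrin subunits reported to bind angiopoietins, Itgb3 was higher in DBL than in ColGFP by 0.94 ± 0.19 (adjusted p = 0.0104). Itgav averaged 156 ± 24.8 CPM in DBL, 82.3 ± 5.97 CPM in TDonly and 211 ± 11.2 CPM in ColGFP, higher in DBL than in TDonly by 0.92 ± 0.12 (adjusted p = 0.000536). Its call in DBL over ColGFP (-0.44 ± 0.12, adjusted p = 0.0423), and that of Itga5 (0.63 ± 0.18, adjusted p = 0.0414), were lost without DBL replicate 1 or 4, TDonly replicate 2 or 3, or ColGFP replicate 2 or 3, and for Itgav also without ColGFP replicate 1 (adjusted p = 0.0553 to 0.143). Itgb1 averaged 721 ± 66.0 CPM in DBL, 879.8 ± 114 CPM in TDonly and 844 ± 48.0 CPM in ColGFP.

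Genes of the Weibel-Palade body, the granule that stores Angpt2, were mostly high in TDonly. Of 5, 1 was higher (Cd63) and 2 lower (Rab27a and Vwf) in DBL than in TDonly, where 29.9% of all genes passed. In DBL 3 were higher than in ColGFP (Edn1, Selp and Vwf), where 14.5% passed, and in TDonly 4 were higher and 1 lower than in ColGFP, where 45.5% passed. The 3 in DBL over ColGFP were 1 by limma-voom, Vwf, and 2 without ColGFP replicate 2 and up to 4 without another library. Leaving out DBL replicate 1 gave 4 lower in DBL over TDonly, and leaving out DBL replicate 4 gave 1. Von Willebrand factor, Vwf, the main cargo, averaged 724 ± 139 CPM in DBL, 2282 ± 117 CPM in TDonly and 140 ± 58.5 CPM in ColGFP, with a log2 fold change of 4.03 ± 0.29 in TDonly over ColGFP (edgeR adjusted p = 5.35e-06). Of 6 factors known to act on the Angpt2 gene, Ets1, Gata2 and Epas1 were lower in DBL than in TDonly and higher in DBL than in ColGFP. Ets1 was -1.30 ± 0.09 and 1.18 ± 0.09 in these comparisons (adjusted p = 5.49e-05 and 5.00e-05), and Gata2 averaged 115 ± 9.08 CPM in DBL, 348 ± 32.1 CPM in TDonly and 24.7 ± 11.3 CPM in ColGFP. Epas1, a hypoxia-inducible factor prominent in endothelium, averaged 3336 ± 28.6 CPM in DBL, 8785 ± 409 CPM in TDonly and 837 ± 275 CPM in ColGFP. Hif1a passed in none of the 3 comparisons in the 9 libraries, by edgeR.

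**Figure D5:**
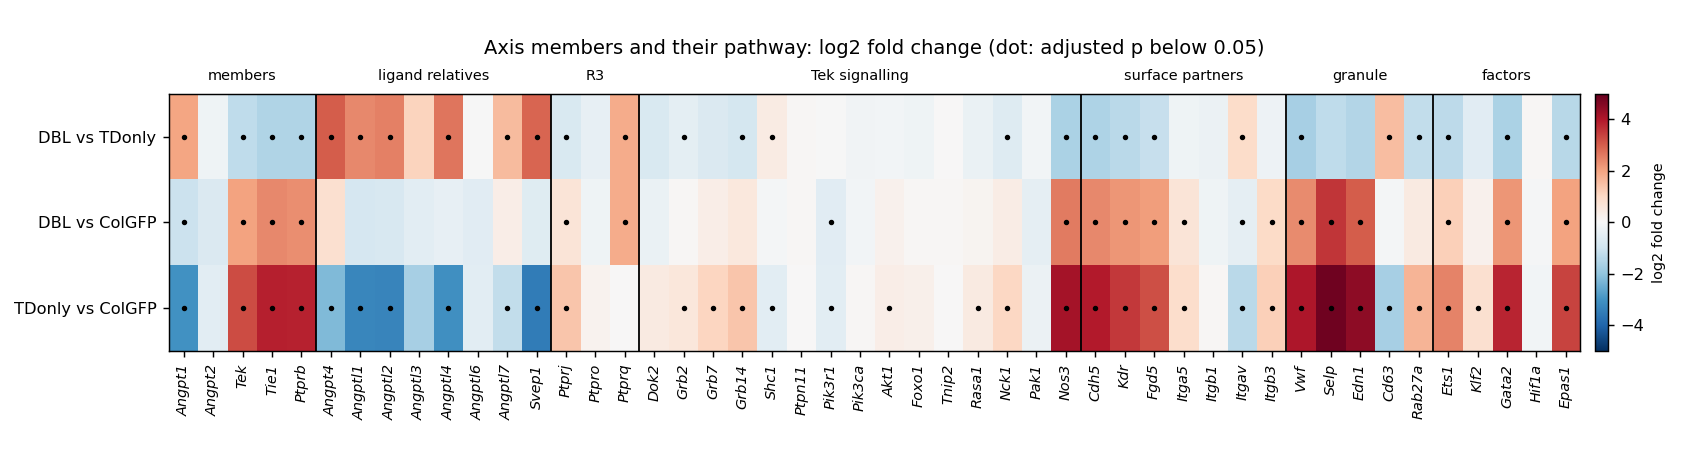
Log2 fold change (colour) of the axis genes and their pathway lists in the 3 comparisons, with a dot where the adjusted p was below 0.05. Most angiopoietin relatives are low in TDonly, as Angpt1 is, Cdh5, Kdr, Fgd5, Ets1, Gata2 and Epas1 have the order of Tek, Tie1 and Ptprb, and Angpt2 has no dot.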

How the data were processed

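Libraries were grouped by sample title. The values are raw counts per gene symbol, as deposited by the authors. The submitters' processing notes name cutadapt, TopHat, HTSeq and mm10 and give no versions; no source names the annotation or the strand setting. Columns were joined to samples by core number, and 3 further columns, which fit no sample, stayed unused. The labels' protocols describe RNA from whole frozen lungs, whereas the series' design text describes sorted cells and ribosomal RNA depletion.

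Genes were kept by filterByExpr (minimum count 10). A quasi-likelihood model of the 3 populations over all libraries, with TMM factors (edgeR 4.0.16, limma 3.58.1, R 4.3.3; 6 residual degrees of freedom), gave two-sided tests, adjusted by Benjamini-Hochberg across 15550 genes at 0.05. A standard error is the absolute log2 fold change divided by the root of F. Ratios used counts plus 0.5 and exact permutation tests. The scripts were tested on simulated data.

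The members, lists and tests were chosen with earlier results of these data known. Named genes were the members, Mcph1, the 5 most similar genes of each member, and per list and comparison up to 4 genes by adjusted p, or all where 5 or fewer passed. Other list genes named were chosen after their values were seen. Alternatives were other scalings and filters, DESeq2 1.42.0, limma-voom, the replicate block, the core numbers and leaving out each library; the interaction with core numbers was chosen after the data were seen. At these depths the spread between replicates, more than counting error, sets the precision.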

Additional observations from a re-analysis of the deposited data

Results flagged for a closer look

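The population effect differed between the replicate 1 libraries, of lower core numbers, and the other 6 libraries for 3 of the 5 axis genes, by interaction terms in the edgeR fit of all 9 libraries. The lower run has 1 library per population, which is assumed to vary like the others, and the spread comes from the higher run alone (3 residual degrees of freedom). The interaction was chosen after replicate 1 was seen to stand apart, so its p-values describe these libraries and are no independent evidence. Among all genes 4.85% differed so between DBL and TDonly, 13.1% between DBL and ColGFP and 16.8% between TDonly and ColGFP. Angpt2 differed in all 3 comparisons: its log2 fold change in the lower run minus that in the higher run was -1.04 in DBL over TDonly (adjusted p = 0.000539), 1.59 in DBL over ColGFP (adjusted p = 6.27e-06) and 2.63 in TDonly over ColGFP (adjusted p = 2.31e-08). Angpt1 differed by 1.00 in DBL over TDonly (adjusted p = 0.00374) and by -1.37 in TDonly over ColGFP (adjusted p = 9.56e-05), where it was -4.06 in the lower run and -2.69 in the higher run. Ptprb differed by -0.43 in DBL over ColGFP (adjusted p = 0.0198) and by -0.59 in TDonly over ColGFP (adjusted p = 0.00177), with the direction of its fold change shared by both runs. The difference for Tek and Tie1 did not pass in any comparison (edgeR adjusted p = 0.104 to 0.976, with unadjusted p = 0.0243 for Tie1 in TDonly over ColGFP).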

How the results depend on the processing

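Tek, Tie1 and Ptprb in all 3 comparisons, and Angpt1 in DBL over TDonly and TDonly over ColGFP, kept their direction and stayed past the threshold in all 20 alternative fits, Tek at 3.22 to 3.43 in TDonly over ColGFP. Angpt1 in DBL over ColGFP was -1.06 with DESeq2 size factors in edgeR (adjusted p = 0.0504), -1.001 with library totals (adjusted p = 0.0747) and -0.96 with the replicate block (adjusted p = 0.105), and -1.22 to -0.95 without a library. Angpt2 was 0.46, -1.36 and -1.82 in DBL over TDonly, DBL over ColGFP and TDonly over ColGFP in the higher core numbers. In DBL over TDonly it was 0.068 by limma-voom and -0.75 to 0.93 without a library, and in TDonly over ColGFP -1.67 to -0.15. The cause was not tested. The count of genes in DBL over ColGFP was 2256, but 4512 in the higher core numbers and 1468 to 2761 without a library; with the replicate block it was 1581 (DBL over TDonly 3594 against 4657, TDonly over ColGFP 6483 against 7082). Replicate numbers were not taken as pairs. Same-numbered libraries correlated at 0.102, 0.045 and 0.0792 in TDonly and ColGFP, and at 0.0926 and 0.0156 in DBL and ColGFP (replicates 1 and 3). In DBL and TDonly they correlated at 0.527 and 0.232 (replicates 1 and 3). All but the last, which was below another number (0.306), were above the other numbers, though 0.0156 only against 0.0143. This is a hint from the data only. In the core's numbering DBL replicate 3 stands next to replicate 2 of the other populations, and DBL replicate 4 next to their replicate 3. The replicate block does not follow these sets for DBL, and pairing by them was not tested. Library totals shifted the median log2 fold change of all genes by 0.15 in TDonly over ColGFP, where 4363 genes were then higher and 2998 lower, against 3355 and 3727, and DBL over TDonly had 2309 and 2454, against 2692 and 1965. Exchange of libraries only within a run of core numbers allows no unadjusted permutation p below 0.0111. Over all 1680 assignments Tek to the endothelium sum did not pass (exact permutation adjusted p = 0.213). With exchange within a run, Tie1 to Tek (0.64), Ptprb to Tek (0.61) and Tek to the endothelium sum (0.44, highest minus lowest population, log2) passed. Each was at that smallest p and at exact permutation adjusted p = 0.02. Without a library these ranged over 0.52 to 0.83, 0.49 to 0.82 and 0.32 to 0.60, Angpt2 to Tek over 3.78 to 4.998, Angpt2 to the endothelium sum over 4.27 to 5.32, Tie1 to it over 0.16 to 0.23 and Angpt1 to the fibroblast sum over 1.42 to 1.64. With 6 libraries ratios were not tested, since p cannot fall low enough. The place of DBL on log2 CPM was 34.3% for Angpt1, 61.45% for Tek, 61.5% for Tie1 and 60.9% for Ptprb, and 32.8% for Tek with library totals.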
